A study of Homo sapiens with 16 samples.

Results

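The CDK1 mitotic entry switch is the set of genes that holds a cell in G2 or lets it enter mitosis. It was read here in IMR32 cells, a human neuroblastoma line with MYCN amplification, after knockdown of TPX2. The set has 10 genes, picked by symbol: the kinase CDK1, the cyclins CCNA2, CCNB1 and CCNB2, the CDK-binding subunit CKS2, the phosphatases CDC25A, CDC25B and CDC25C, and the inhibitory kinases WEE1 and PKMYT1. All 10 were found, each as 1 of the 58787 gene identifiers in the deposited count table. TPX2 encodes a microtubule-nucleating protein that binds and activates the Aurora A kinase on the mitotic spindle.

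The study set a non-targeting siRNA, siNTC, beside si45, si46 and si47, which are 3 siRNAs that target TPX2. Each group had 4 libraries, which the design text calls biological replicates, so 12 knockdown libraries stand against 4 controls. The column headers give a time of 48 h for every library, and every library comes from the same cell line with no other labelled genotype or drug. The siRNA sequences, doses and transfection conditions are not given in the sources used here. The 3 comparisons with siNTC share the same 4 control libraries, so they are not independent of each other.

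As background, CDK1 is active only when bound to cyclin A or cyclin B. WEE1 in the nucleus and PKMYT1 at the endoplasmic reticulum and Golgi place inhibitory phosphates on it, and CDC25 phosphatases take them off; active CDK1 in turn activates CDC25 and restrains WEE1 and PKMYT1, which makes entry into mitosis switch-like. Transcripts of most of these genes are low in G1 and high in G2 and mitosis, so their level in a dividing culture moves with the share of cells in G2 and mitosis. In bulk RNA, fewer cells in a phase and less RNA per cell cannot be told apart.

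The libraries held between 5318159 and 7864343 counts, with all 10 adrenergic neuroblast markers above 1 CPM (counts scaled to the library's size) in every group. Among 10 markers of mesenchymal neuroblastoma or Schwann-like cells, 3 had a group mean above 1 CPM: TWIST1, COL1A1 and SNAI2. Their siNTC means were 244, 37.1 and 6.13 CPM, while PRRX1 and S100B were at 0 in siNTC. The summed level of the 10, most of it TWIST1, spanned 268 to 317 CPM in siNTC and 257 to 323 CPM under the siRNAs. The summed adrenergic level was 4740 to 5101 CPM in siNTC and 5315 to 5872 CPM under si47, so these ranges did not overlap; the part of this in the results was not tested. TPX2 itself had 297 to 359 CPM in siNTC and 62.2 to 121 CPM in the knockdown libraries, or 24.9% of the control mean. Its log2 fold change was -2.01 for the mean of the 3 siRNAs (SE 0.0886, edgeR adjusted p = 1.13e-15), running from -1.84 for si45 to -2.20 for si47. The third si45 library kept more TPX2 (121 CPM) than the other 3 si45 libraries (79.4 to 85.1 CPM).

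The promoters were searched for 2 sequence elements known from cell cycle genes, and the windows below show members that hold the same element while their transcripts differed in the test. The cell cycle genes homology region (CHR) is bound by the MuvB complexes that repress such genes in G1 and activate them in G2, and the CCAAT box is bound by NF-Y. RefSeq promoter windows on GRCh38.p14, from 250 bases before to 50 after an annotated start, were listed for 8 of the 10 members, with 15 windows in all. WEE1 and PKMYT1 were not among them. The letters TTTGAA, searched on both strands, were in windows of CDK1, CDC25C, CCNB2 and CKS2, and TTCGAA in CDC25B. The first form was in 15.2% and the second in 1.45% of 35116 promoters. CCAAT was in at least 1 window of 8 of the 8 genes and in 34.6% of all promoters; no matches overlapped. A gene with several windows has more chances of a match than a single promoter has. Each line gives 30 bases on the gene's own strand with the element in capitals; TTCAAA is TTTGAA and ATTGG is CCAAT read on the other strand.
CDK1 CHR, at -13 from the start, chr10:60778453-60778482 plus strand: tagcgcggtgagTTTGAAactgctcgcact
CDC25C CHR, at -30, chr5:138331817-138331846 minus strand: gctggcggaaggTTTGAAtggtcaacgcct
CCNB2 CHR, at -29, chr15:59105105-59105134 plus strand: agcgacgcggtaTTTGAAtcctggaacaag
CKS2 CHR, at -29, chr9:89311154-89311183 plus strand: cgggctgtcggaTTCAAAtccggatcgttg
CDC25B CHR, second form, at -38, chr20:3796260-3796289 plus strand: ctgctgttatttTTCGAAtatataaggagg
CCNA2 CCAAT box, at -56, chr4:121823922-121823951 minus strand: gcgagcgctttcATTGGtccatttcaatag
CCNB1 CCAAT box, at -55, chr5:69167083-69167112 plus strand: gccacgaacaggCCAATaaggagggagcag
CDK1 and CDC25C, with the first form of the element, had lower transcript levels after TPX2 knockdown, while CCNB2 and CKS2, with the same letters, did not pass the test. CCNA2 was lower and had neither form in its window, which says only that these letters are not in that window.

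Across the set, transcripts of CDK1, CCNA2, CDC25C and PKMYT1 fell when the 3 siRNAs were averaged. CCNB1, CCNB2, CKS2, CDC25A, CDC25B and WEE1 did not pass the test in that comparison. The 4 genes lower of the 10 members compare with 3.53% of the 14193 genes tested that were lower in the same comparison. By the same adjusted threshold 0 members were higher, against 3.61% of all genes. At an unadjusted p under 0.05, 0 members were higher too, where 20.4% of all genes passed in either direction. All 10 members passed the filter on low counts. The median log2 fold change was -0.23 over the members and -0.00113 over all tested genes. By siRNA, si45 lowered 1 member (CDK1) against 0.324% of all genes, si46 lowered 2 (CDK1 and PKMYT1) against 1.25%, and si47 lowered 6 (CDK1, CCNA2, CDC25A, CDC25C, WEE1 and PKMYT1) against 4.83%. Under si47, 0 members were higher at the adjusted threshold, against 4.91% of all genes. Nor was any member higher there at an unadjusted p under 0.05, where 23.3% of all genes passed in either direction. The members' median log2 fold change was -0.12 for si45, -0.18 for si46 and -0.35 for si47. A call means an edgeR quasi-likelihood test with a Benjamini-Hochberg adjusted p under 0.05 over all genes tested.

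**Figure D1:**
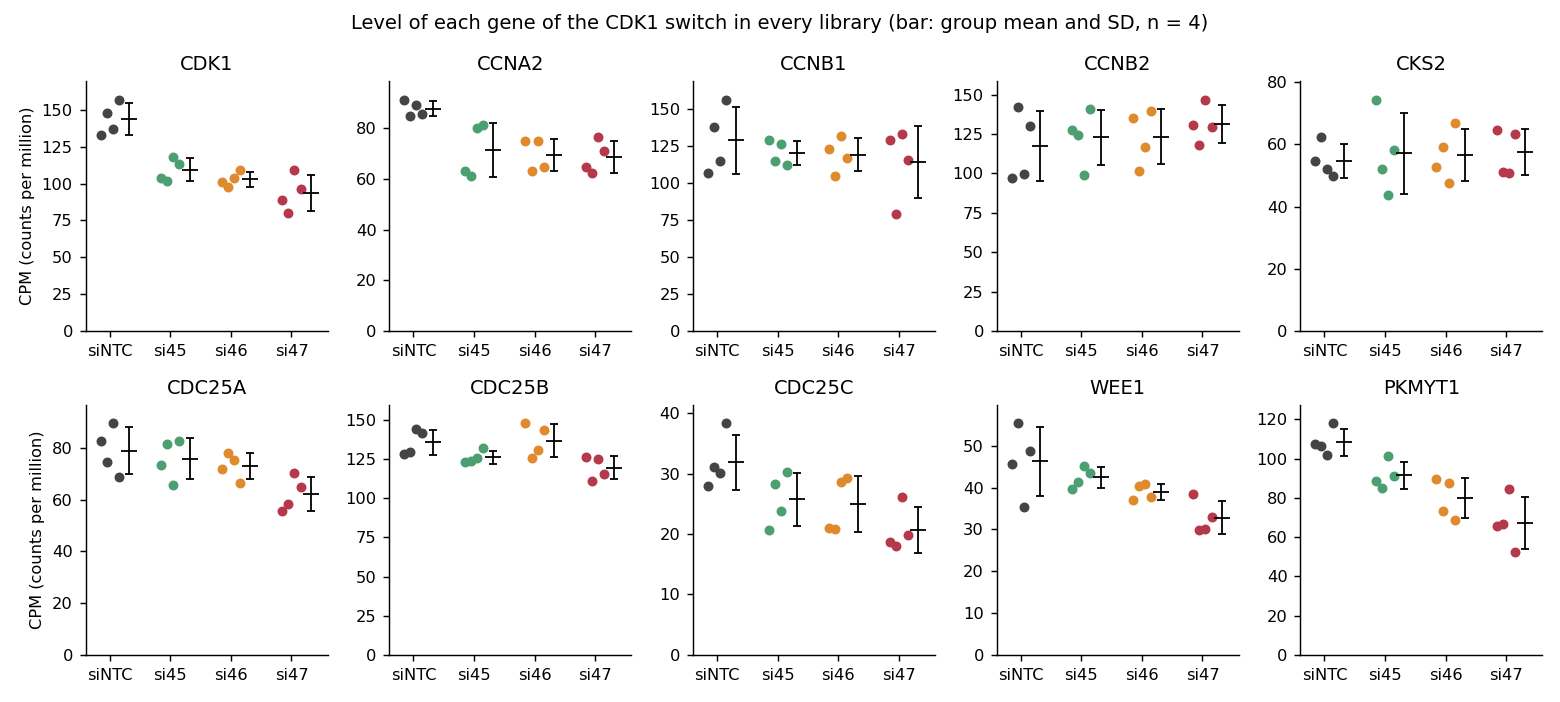
Level of the 10 genes in CPM (vertical axes, from 0) in each of the 4 libraries of siNTC, si45, si46 and si47 (points), with the group mean and SD (bars). CDK1, CCNA2 and PKMYT1 lie lower in all 12 knockdown libraries than in any siNTC library, while the groups overlap for CCNB1, CCNB2 and CKS2.

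In the control libraries CDK1 had the highest mean level of the set, 143 ± 10.9 CPM (SD, n = 4), followed by CDC25B (136), CCNB1 (129), CCNB2 (117) and PKMYT1 (108). CCNA2 (87.7) and CDC25A (78.8) came next, then CKS2 (54.7), WEE1 (46.3) and CDC25C (31.9). The order is approximate. The 3' end library is meant to give 1 read per transcript whatever its length, but PCR copies and reads of overlapping genes may enter the counts. Neighbours in this order had overlapping control libraries, except that PKMYT1 lay above CCNA2 and CDC25A above CKS2 without overlap.

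CDK1, the catalytic subunit of the switch (ENSG00000170312, chr10:60778331-60794852, plus strand, GRCh38), had 133, 147, 137 and 157 CPM in the 4 siNTC libraries. It had 104, 102, 118 and 113 CPM under si45, 101, 97.7, 104 and 109 CPM under si46, and 89.0, 80.0, 109 and 96.5 CPM under si47. Every knockdown library was below every control library, as were 1.03% of all tested genes, and the knockdown mean was 71.0% of the control mean. The log2 fold change was -0.50 for the mean of the siRNAs (SE 0.0761, edgeR adjusted p = 3.27e-05). By siRNA it was -0.39 for si45 (SE 0.0955, edgeR adjusted p = 0.0238), -0.48 for si46 (SE 0.0957, edgeR adjusted p = 0.00191) and -0.61 for si47 (SE 0.0961, edgeR adjusted p = 3.85e-05). The si45 call was lost when siNTC replicate 2 (edgeR adjusted p = 0.0782), siNTC replicate 4 (0.121), si45 replicate 1 (0.127) or si45 replicate 2 (0.122) was left out, so the count of members called for si45 was then 0.

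Cyclin A2, encoded by CCNA2 and needed for S phase and for the start of mitosis, was the cyclin of the set that fell. It had 91.2, 84.8, 89.1 and 85.7 CPM in siNTC. The si45 libraries had 63.2, 61.2, 79.9 and 81.1 CPM, the si46 libraries 75.1, 63.1, 74.9 and 64.8 CPM, and the si47 libraries 64.8, 62.2, 76.6 and 70.9 CPM. All 12 knockdown libraries lay below all 4 controls, which were close together. The log2 fold change was -0.33 for the mean of the siRNAs (SE 0.0860, edgeR adjusted p = 0.0141) and -0.35 for si47 (edgeR adjusted p = 0.0300). The values for si45 (-0.30, edgeR adjusted p = 0.210) and si46 (-0.33, edgeR adjusted p = 0.0810) were of like size and did not pass, but both passed with the replicate number as a block (edgeR adjusted p = 0.0497 and 0.0161). For si46 the value also passed when only those libraries and siNTC were fitted (edgeR adjusted p = 0.0459). Without siNTC replicate 1 the mean call was lost (edgeR adjusted p = 0.0637). The si47 call was lost without any 1 of the siNTC libraries (edgeR adjusted p = 0.0791, 0.0503, 0.0646 and 0.0546 without replicates 1 to 4) and without si47 replicate 1 (0.10004) or 2 (0.107). EXOSC9 overlaps CCNA2 on the opposite strand and was also lower (log2 fold change -0.28, edgeR adjusted p = 0.0308); whether the counting used strand is not given in the sources used here, so reads of this pair cannot be told apart with certainty.

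The B-type cyclins did not pass the test under any of the 3 siRNAs. CCNB1, the main partner of CDK1 at entry into mitosis, had 106, 137, 114 and 156 CPM in siNTC, 112 to 129 CPM under si45, 105 to 131 CPM under si46 and 79.3 to 133 CPM under si47. Only 2 of 12 knockdown libraries were below all controls, and the controls themselves were widely spread. Its log2 fold change was -0.13 with a 95% interval of -0.34 to 0.09 (edgeR adjusted p = 0.550). CCNB2, the B-type cyclin found mostly at the Golgi, had 97.2, 142, 99.7 and 130.3 CPM in siNTC, 98.8 to 141 CPM under si45, 102 to 139 CPM under si46 and 118 to 147 CPM under si47. No knockdown library was below the control range (0 of 12), and its log2 fold change was 0.10 with an interval of -0.11 to 0.31 (edgeR adjusted p = 0.635).

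CKS2, a small subunit that docks CDK1 onto phosphorylated substrates, had 54.5, 62.3, 52.2 and 49.8 CPM in siNTC, 43.7 to 74.4 CPM under si45, 47.5 to 66.7 CPM under si46 and 50.9 to 64.8 CPM under si47. The groups overlapped throughout. The log2 fold change was 0.06 with an interval of -0.17 to 0.29 (edgeR adjusted p = 0.821). For CCNB2 and CKS2, whose intervals start at -0.11 and -0.17, the lower bound lies above the CDK1 interval of -0.65 to -0.34. The interval of CCNB1 starts at -0.34 and touches that of CDK1. CDK1 was not tested against CCNB1 or CCNB2.

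Of the CDC25 phosphatases, which remove the inhibitory phosphates from CDK1, CDC25C fell in the mean of the siRNAs and CDC25A fell under si47. CDC25C, whose product acts at entry into mitosis, had 27.9, 31.1, 30.1 and 38.3 CPM in siNTC. It had 20.6, 28.3, 23.8 and 30.3 CPM under si45, 21.0, 20.9, 28.6 and 29.2 CPM under si46, and 18.7, 17.96, 26.2 and 19.8 CPM under si47. The si47 libraries were all below the controls, and 8 of 12 knockdown libraries were. The shares of all genes with these patterns were not computed. Its log2 fold change was -0.43 for the mean (SE 0.130, edgeR adjusted p = 0.0364) and -0.62 for si47 (SE 0.164, edgeR adjusted p = 0.0112). It is the least abundant member, and the mean call was lost without siNTC replicate 2 (edgeR adjusted p = 0.0811), 3 (0.0667) or 4 (0.216), si45 replicate 1 (0.0654), si46 replicate 1 (0.0573) or 2 (0.0567), or si47 replicate 1 (0.0585) or 2 (0.0559). The si47 call was lost without siNTC replicate 4 (edgeR adjusted p = 0.0674). FAM53C, on the opposite strand of the same locus, had more counts in all than CDC25C (5167 against 2467) and a log2 fold change of 0.14 (edgeR adjusted p = 0.404).

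CDC25A, which also acts at the start of S phase, had 82.7, 74.5, 89.5 and 68.7 CPM in siNTC and 55.5, 58.2, 70.1 and 64.9 CPM under si47. The si47 range overlapped the lowest control. Its log2 fold change under si47 was -0.34 (SE 0.108, edgeR adjusted p = 0.0385), against -0.06 for si45 and -0.11 for si46, which did not pass. The si47 call was lost without siNTC replicate 1 (edgeR adjusted p = 0.1002) or 3 (0.145), without si47 replicate 1 (0.144), 2 (0.1098) or 4 (0.0553), and when only si47 and siNTC were fitted (0.0565). CDC25B, a starter phosphatase that acts at centrosomes in G2, had 128, 129, 144 and 141 CPM in siNTC, 123 to 132 CPM under si45, 125 to 148 CPM under si46 and 111 to 126 CPM under si47. The si47 libraries were below all controls, a pattern whose share over all genes was not computed. The si47 log2 fold change of -0.18 did not pass (edgeR adjusted p = 0.192). The mean over siRNAs was -0.09 with an interval of -0.24 to 0.05 (edgeR adjusted p = 0.496).

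Transcripts of both kinases that hold CDK1 inactive were lower under si47. PKMYT1, the membrane-bound kinase, had 107, 106, 102 and 118 CPM in siNTC. It had 88.5, 85.2, 101 and 91.2 CPM under si45, 89.5, 73.5, 87.5 and 68.9 CPM under si46, and 65.5, 66.6, 84.7 and 52.3 CPM under si47. All 12 knockdown libraries lay below all controls, with the third si45 library (101 CPM) close to the lowest control (102 CPM). The log2 fold change was -0.46 for the mean (SE 0.0905, edgeR adjusted p = 0.00105). By siRNA it was -0.24 for si45 (edgeR adjusted p = 0.393), -0.44 for si46 (SE 0.113, edgeR adjusted p = 0.0234) and -0.69 for si47 (SE 0.115, edgeR adjusted p = 8.98e-05). The si46 call, and with it 1 of the 2 members called for si46, was lost without siNTC replicate 1 (edgeR adjusted p = 0.0556) or 4 (0.0937) and without si46 replicate 2 (0.0979) or 4 (0.114). PAQR4, which overlaps PKMYT1 on the opposite strand, was lower too (log2 fold change -0.36, edgeR adjusted p = 0.0360), with 3353 counts in all libraries against 8358 for PKMYT1.

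WEE1, the nuclear kinase, had 45.5, 55.4, 35.4 and 48.7 CPM in siNTC, 39.6 to 45.3 CPM under si45 and 37.0 to 40.7 CPM under si46. Under si47 it had 38.5, 29.9, 30.1 and 32.8 CPM, with 3 of 4 libraries below all controls. Its log2 fold change was -0.49 for si47 (SE 0.130, edgeR adjusted p = 0.0109) and -0.29 for the mean, which did not pass (SE 0.103, edgeR adjusted p = 0.0822). The mean passed without siNTC replicate 3 (edgeR adjusted p = 0.0230) and in the fit blocked by replicate number (0.0447), while the si47 call was lost without siNTC replicate 2 (0.0755).

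**Figure D2:**
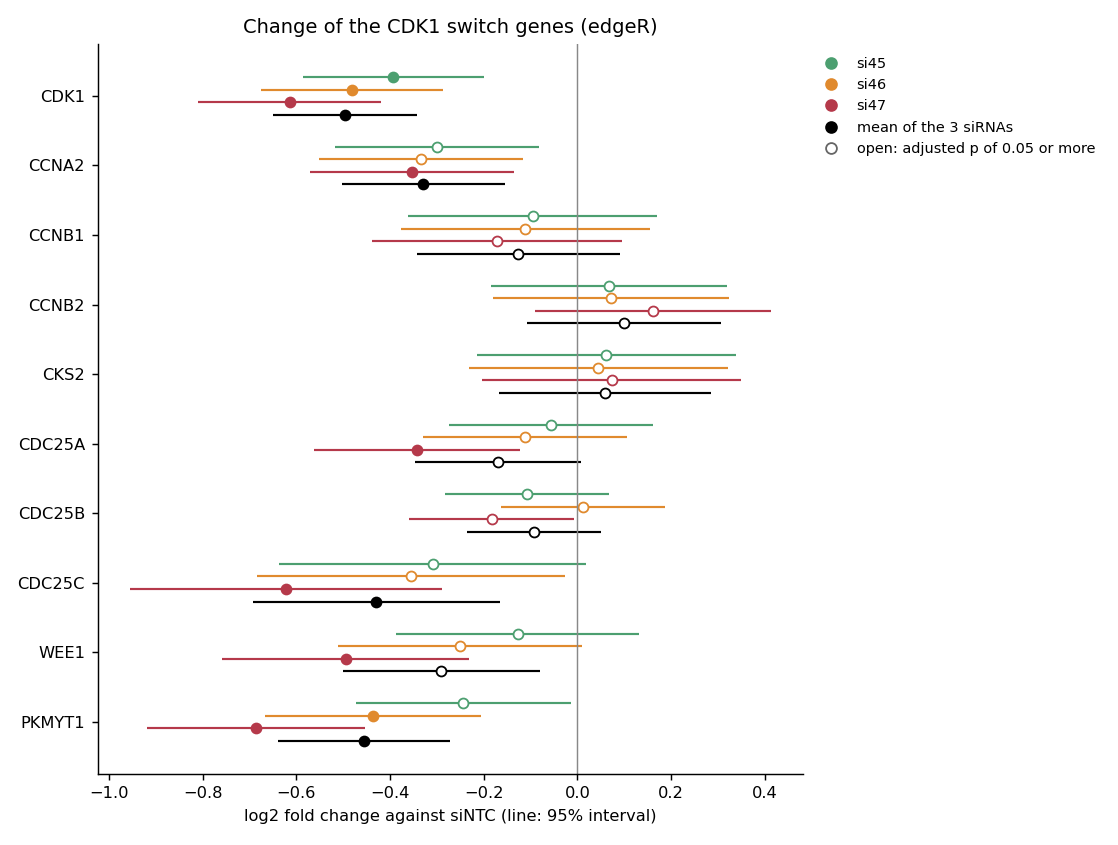
Log2 fold change against siNTC (horizontal axis) of the 10 genes for si45, si46, si47 and the mean of the 3 siRNAs, with the 95% interval from edgeR; filled points have an adjusted p under 0.05. CDK1 is filled in every comparison, and CCNB1, CCNB2, CKS2 and CDC25B in none.

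The siRNAs were then compared with each other. The controls enter these differences only through the filter, the scaling factors and the estimate of the spread, which all 16 libraries share. In these 3 comparisons edgeR called 0 of 10 members, where it called 0.0282% of all genes for si46 against si45, 0.169% for si47 against si45 and 0.0493% for si47 against si46. At an unadjusted p under 0.05 the member counts were 0, 4 and 3, against 4.1%, 10.4% and 7.29% of all genes. The widest difference among the members was that of PKMYT1, with a log2 difference of -0.44 for si47 against si45 (SE 0.115, edgeR adjusted p = 0.0820). In some alternatives it passed: under DESeq2 (-0.45, adjusted p = 0.0302), without the filter on low counts (-0.45, edgeR adjusted p = 0.0108), without si47 replicate 3 (edgeR adjusted p = 0.00706) and with the replicate number as a block (-0.45, edgeR adjusted p = 0.00482). Those settings called more of all genes too, with 137, 166, 147 and 398 genes in the same order, against 24 before. CDK1 differed by -0.22 between si47 and si45, with an interval of -0.42 to -0.03 (edgeR adjusted p = 0.392). WEE1 differed by -0.37 (edgeR adjusted p = 0.252) and CDC25A by -0.29 (edgeR adjusted p = 0.297).

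The difference of log2 CPM between 2 genes was taken within each library, which cancels the library's depth. The 12 knockdown libraries were set beside the 4 controls with an exact two-sided permutation test over 1820 regroupings, adjusted over the 4 pairs. The pairs were chosen when earlier results of these data, in which CKS2 and CCNB2 had no negative fold change, were known, so the p-values below describe these libraries and are not independent evidence that the genes moved apart. CDK1 minus CKS2 was 1.28, 1.24, 1.39 and 1.65 in siNTC. It was 0.48, 0.96, 1.43 and 0.96 under si45, 0.93, 0.72, 1.12 and 0.71 under si46, and 0.46, 0.64, 1.10 and 0.61 under si47. In 11 of 12 knockdown libraries the difference was below all controls, the third si45 library being the exception at 1.43. The shift was -0.55 (exact permutation p = 0.00495, adjusted 0.0198). The call was lost without siNTC replicate 4 (adjusted exact permutation p = 0.0879), and without the third si45 library it was -0.60 (adjusted exact permutation p = 0.00293).

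CDC25B minus CDC25C shifted by 0.34, from 2.09 ± 0.168 in siNTC (SD, n = 4) to 2.42 ± 0.237 in the knockdown libraries (SD, n = 12; exact permutation p = 0.0231, adjusted 0.0462). It was above all controls in 8 of 12 libraries. That call was lost on leaving out any 1 of 10 libraries, with adjusted exact permutation p = 0.0527, 0.0681 and 0.180 without siNTC replicates 1, 2 and 4, and 0.0659 without si45 replicate 1. It was 0.0571, 0.0659 and 0.0513 without si46 replicates 1, 2 and 4, and 0.0630, 0.0689 and 0.0689 without si47 replicates 1, 2 and 4. CCNB1 minus CCNB2, the balance of the B-type cyclins, was 0.14 ± 0.133 in siNTC (SD, n = 4) and -0.10 ± 0.237 in the knockdown libraries (SD, n = 12). The shift of -0.23 did not pass (exact permutation p = 0.0863, adjusted 0.115), but passed without the third si45 library (-0.27, adjusted exact permutation p = 0.0381). WEE1 minus PKMYT1, the balance of the inhibitory kinases, shifted by 0.19 and did not pass (exact permutation p = 0.170, adjusted 0.170), with 4 of 12 libraries above all controls.

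**Figure D3:**
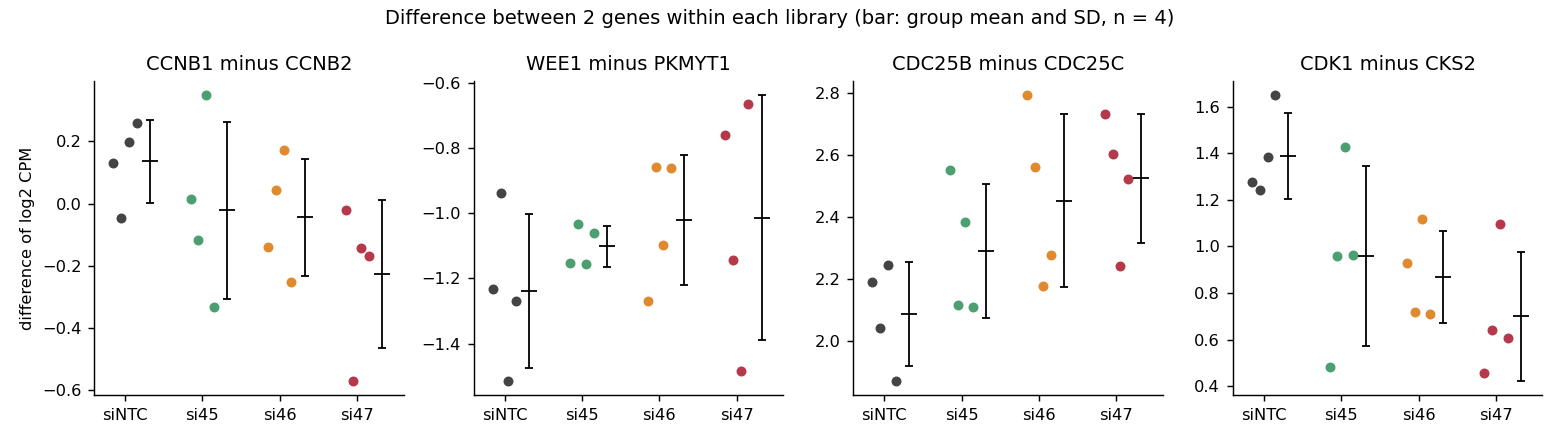
Difference of log2 CPM between 2 genes in each library (points) for 4 pairs, with group mean and SD (bars); the vertical axes differ and do not start at 0. CDK1 minus CKS2 is below all controls in 11 of 12 knockdown libraries, and WEE1 minus PKMYT1 overlaps the controls.

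The genes whose levels lay closest to CDK1 were found by the root mean square difference of log2 CPM from CDK1 over the 16 libraries. Each gene was set to its own siNTC mean, among 7085 genes with a mean of at least 20 CPM. They were RAI14 (0.103), an actin-associated protein, MKI67 (0.104), the proliferation antigen Ki-67, NCAPH (0.109), a condensin subunit, KIF14 (0.112), a kinesin of cytokinesis, and AURKB (0.120), the kinase of the chromosomal passenger complex. Of the other members, CDC25C ranked 54, PKMYT1 69 and CCNA2 110 in this order. WEE1 ranked 454, CDC25A 1149, CCNB1 1448 and CDC25B 1671, and CKS2 and CCNB2 came last of the members at 4869 and 5289. The measure includes the shift from siNTC, so the ranks largely repeat the fold changes above and do not show that genes vary together. They describe the 16 libraries and carry no test.

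Further regulators of the switch were read from 33 genes in 6 lists, of which 31 were tested; CCNB3 and SFN did not pass the filter on low counts. In the mean of the siRNAs 6 were lower and 1 higher, against 3.53% and 3.61% of all genes. For si45, edgeR called 0 and DESeq2 1, and 7 had an unadjusted p under 0.05, as did 11.4% of all genes. For si46, 3 were lower, against 1.25% of all genes, and for si47, 6 were lower and 1 higher, against 4.83% and 4.91%. The median log2 fold change of the 31 was -0.04, against -0.00113 over all genes. Without the third si45 library the si45 count was 4 rather than 0, while the calls over all genes went from 190 to 406. Without siNTC replicate 4 the mean count was 4 rather than 7, while those over all genes went from 1014 to 632. The si46 count of 3 was 1 without siNTC replicate 1, 3 or 4 or si46 replicate 1, and 0 without si46 replicate 2 or 4.

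Among 5 other cyclins, kinases and subunits, 2 fell. CCNF, whose product targets proteins for degradation in G2, had a log2 fold change of -0.50 (SE 0.109, edgeR adjusted p = 0.00423), with siNTC libraries at 94.5 to 113 CPM and 11 of 12 knockdown libraries below them; the third si45 library, at 118 CPM, was above them. CDK2, the kinase of S phase, had a log2 fold change of -0.41 (SE 0.0902, edgeR adjusted p = 0.00431); its control level was 299 ± 35.7 CPM (SD, n = 4), with 8 of 12 libraries below the controls. PMEL overlaps CDK2 on the opposite strand, with 2598 counts in all libraries against 23348. Of the 3 subunits of the CDK-activating kinase, CCNH was higher by 0.77 on the log2 scale (SE 0.192, edgeR adjusted p = 0.00978), with 4.92 to 8.66 CPM in siNTC and 8.67 to 16.9 CPM in the knockdown libraries. All 12 were above all controls, though 1 was above by a narrow margin. The share of all genes with that pattern was not computed, and CCNH had only 26 to 109 counts in a library. The CCNH call was lost without siNTC replicate 3 (edgeR adjusted p = 0.0656), and the gene overlaps RASA1 on the opposite strand, which had more counts in all libraries (2656 against 1017).

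Of the 3 genes of the PLK1 arm, which activates CDC25C and marks WEE1 for degradation, AURKA fell. AURKA, the kinase that TPX2 activates, had a log2 fold change of -0.45 (SE 0.120, edgeR adjusted p = 0.0278), with 11 of 12 knockdown libraries below the controls. The call was lost without siNTC replicate 1 (edgeR adjusted p = 0.0750), 2 (0.0812) or 4 (0.119). PLK1 had 138 to 167 CPM in siNTC and 106 to 172 CPM in the knockdown libraries, with a log2 fold change of -0.16 and an interval of -0.35 to 0.03 (edgeR adjusted p = 0.349). In the arm that restrains the phosphatase PP2A-B55 during mitosis, 1 of 9 genes fell: MASTL, the Greatwall kinase, had a log2 fold change of -0.41 (SE 0.122, edgeR adjusted p = 0.0342). Its call was lost without siNTC replicate 2 (edgeR adjusted p = 0.236), 3 (0.0621) or 4 (0.0803), or without si47 replicate 1 (0.0583), and YME1L1 overlaps it on the opposite strand with 13337 counts against 2990.

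Of 5 checkpoint genes, 2 fell. CHEK1, the kinase that inactivates CDC25 when replication stalls, had a log2 fold change of -0.48 (SE 0.113, edgeR adjusted p = 0.00615), falling under si47 from a control level of 38.4 ± 5.51 CPM (SD, n = 4) to 24.1 ± 2.03 CPM (SD, n = 4). It lost its call without siNTC replicate 4 (edgeR adjusted p = 0.0614), and STT3A overlaps it on the same strand. CLSPN, the adaptor through which CHEK1 is activated, had a log2 fold change of -0.46 (SE 0.0824, edgeR adjusted p = 3.71e-04), with 10 of 12 knockdown libraries below the controls. Among the 6 tested 14-3-3 genes, whose products hold phosphorylated CDC25 in the cytoplasm, 0 passed with edgeR in the mean of the siRNAs (1 at an unadjusted p under 0.05).

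**Figure D4:**
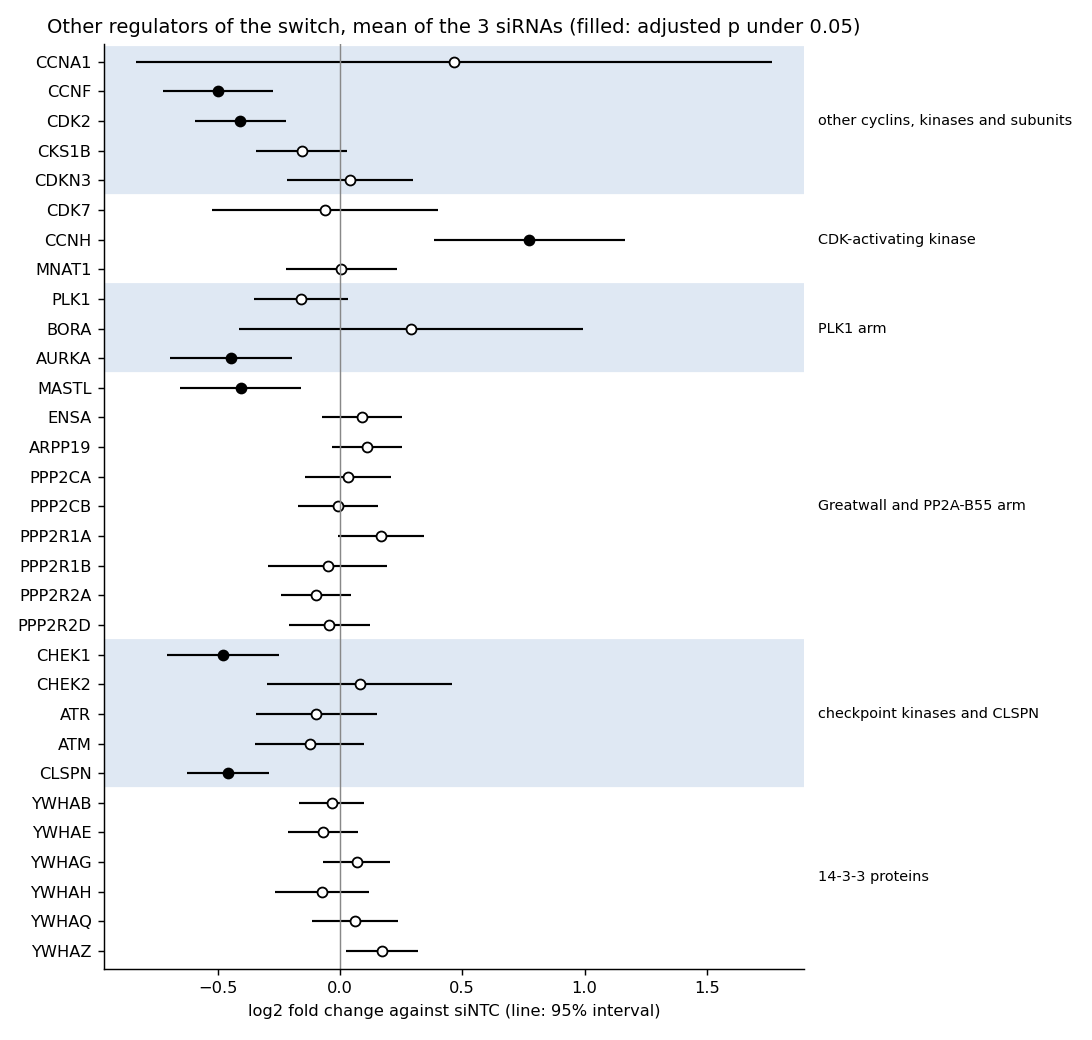
Log2 fold change for the 3 siRNAs averaged, relative to siNTC (horizontal axis), with its 95% interval for 31 further regulators of CDK1, grouped by list (shading); filled points have an edgeR adjusted p under 0.05. The 6 filled points on the left are CCNF, CDK2, AURKA, MASTL, CHEK1 and CLSPN, and the filled point on the right is CCNH.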

How the data were processed

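Total RNA of 16 IMR32 libraries was profiled with a 3' end QuantSeq kit and 15 PCR cycles, single-end, per the labels' protocols. The authors deposited raw counts per Ensembl gene, whole numbers that were not normalized. STAR 2.7.2b, FastQC 0.11.7, edgeR 3.36.0, limma 3.50.3 and GRCh38 are named in the submitters' processing notes; the counter, the annotation, strand use and the handling of molecular identifiers are not given in the sources used here. Reads copied by PCR may therefore count more than once, and overlapping genes may share reads.

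Libraries were grouped by the siRNA in their titles, and no sample column was left unused. Counts were filtered with filterByExpr (minimum count 10), scaled by TMM and fitted with the quasi-likelihood test of edgeR 4.0.16 in R 4.3.3 over all 16 libraries, with 7 contrasts and Benjamini-Hochberg adjustment over the 14193 genes of each contrast at 0.05. CPM values use TMM library sizes, and log2 CPM a prior count of 2. Pair differences used exact permutation tests (Python 3.11.15, numpy 2.4.6). Depth was 5318159 to 7864343 counts, and the members' lowest count in any library was 99 (CDC25C). The fit was tested on simulated data. Alternatives were DESeq2 1.42.0, limma-voom (limma 3.58.1), other scalings and filters, a stricter threshold, the replicate block and leaving out each library. Gene positions come from GENCODE 29, and promoter sequences from RefSeq (GRCh38.p14).

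All 10 members and TPX2 are named whatever their values. Of the lists, genes past the threshold in the mean contrast are named (at most 4 a list, by lowest p), with PLK1, MASTL and CHEK1, and the 5 genes most like CDK1. The members, lists and pairs were chosen with earlier results of these data known. Libraries with the same replicate number tended to deviate together in every pair of groups, which comes from the values and not from the labels. All r were above 0, from 0.0188 to 0.247. Pairs with a control library had r of 0.0188 to 0.184. Between si45 and si47 all 4 exceeded 0.1 (0.120 to 0.242), and in the other group pairs not all 4 did. The main fit had no term for the replicate number.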

Additional observations from a re-analysis of the deposited data

Results flagged for a closer look

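Among 44 groups of 4 libraries examined (the 10 members and TPX2 in each group), 1 held a library far from the others: TPX2 in the third si45 library, at 121 CPM, against 79.4 to 85.1 CPM in the other 3 si45 libraries. Chance alone gives about 2.2 such groups of 44. The same library had a CDK1 minus CKS2 difference of 1.43, inside the control range, PKMYT1 at 101 CPM beside a lowest control of 102 CPM, and CCNF at 118 CPM, above all controls. Other values of this library lay below all controls, among them CDK1 (118 CPM, lowest control 133 CPM). CKS2 (43.7 CPM, lowest control 49.8 CPM) and CDC25A (65.7 CPM, lowest control 68.7 CPM) were also below. Without the third si45 library the number of members called was 1 for si45 and 4 for the mean of the siRNAs, as with it.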

How the results depend on the processing

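The alternatives were other scalings (RLE, upper quartile), DESeq2, limma-voom, 2 other filters, only the groups compared, a threshold of 0.01, the replicate block and leaving out each library. The threshold of 0.01 was applied to the counts of calls only. Over the log2 fold changes of the 10 members and all other settings, 1003 values kept direction and call, 31 lost a call, 9 gained one and 13 changed sign. For the mean of the siRNAs, the setting with only the groups compared is the main fit itself, so those values could not change. No scaling moved the median of all genes by over 0.1 on the log2 scale.

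Members called at an adjusted p under 0.01 were 0 for si45, 1 for si46, 2 for si47 and 2 for the mean of the siRNAs. The other regulators called were 0 for si46 and 4 for si47. Calls over all genes were not counted at 0.01, so whether the drop is particular to these genes cannot be told. DESeq2 and the absence of a filter each called 1 member for si47 against si45, and called 1 and 2 other regulators for si45. Over all genes the calls for si47 against si45 then went from 24 to 137 and 166, and those for si45 from 190 to 292 and 356.

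The replicate block, which treats libraries of 1 number as a pairing, called 2 members for si45 and 1 for si47 against si45, and 4 other regulators for si45 and 5 for si46. Over all genes its calls went from 190 to 577 for si45, from 482 to 1073 for si46 and from 24 to 398 for si47 against si45, so the added calls came with a rise over all genes. For the pairs, with labels permuted within numbers, the block gave the same shifts and calls, with adjusted p = 0.104 for CCNB1 minus CCNB2, 0.125 for WEE1 minus PKMYT1, and 0.0234 for each of the other pairs in exact permutation tests. Of the member calls against siNTC, the block added CCNA2 for si45 and si46 and WEE1 for the mean and ended none. For 15 of the 16 libraries, the mean correlation with libraries of the other groups was highest for those of their own number.

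Leaving out 1 library gave 0 to 1 members called for si45, 1 to 2 for si46, 4 to 6 for si47, 3 to 4 for the mean and 0 to 1 for si47 against si45. Other regulators called were 0 to 4 for si45, 0 to 3 for si46, 5 to 8 for si47 and 4 to 7 for the mean. Over all genes the calls spanned 97 to 406 for si45, 252 to 579 for si46, 932 to 1664 for si47, 629 to 1388 for the mean and 10 to 147 for si47 against si45. The pair shifts spanned -0.29 to -0.19 (CCNB1 minus CCNB2), 0.10 to 0.29 (WEE1 minus PKMYT1), 0.26 to 0.39 (CDC25B minus CDC25C) and -0.60 to -0.46 (CDK1 minus CKS2). Log2 fold changes that changed sign were all uncalled: for si45, CCNB1 spanned -0.18 to 0.00811, CCNB2 -0.0154 to 0.18, CDC25A -0.12 to 0.00820 and CKS2 -0.0853 to 0.17, and for si46, CCNB2 spanned -0.0105 to 0.18, CDC25B -0.0291 to 0.0511 and CKS2 -0.0446 to 0.12. The cause of these changes was not tested.

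Each member had 99 to 1167 counts in a library, and the intervals of the log2 fold changes give the precision; for CCNB1 in the mean of the siRNAs it ran from -0.34 to 0.09.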
